A study of Mus musculus with 99 samples.

Results

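Ketamine non-responders were compared with saline-treated susceptible mice in the prefrontal cortex by bulk RNA sequencing of mouse brain tissue. The comparison held 6 of the 99 libraries of the series, picked by the group name in each title and joined to the count table by sample number. The first group held 3 libraries from mice classed as susceptible to chronic social defeat stress, treated with ketamine and classed as non-responders. The other held 3 libraries from susceptible mice given saline. Both groups thus carried the same stress history and the same susceptible label. Further prefrontal groups served as second points of reference: 3 libraries from susceptible mice that responded to ketamine and 5 libraries from control mice given saline. Each library pooled tissue from 2 mice, so mice within a library could not be told apart. The labels give no strain, sex, age, dose, interval after the drug or behavioural criterion for a response. They do not say whether the libraries of different brain regions came from the same animals. The labels call these pools biological replicates.

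Ketamine is an antagonist of the NMDA receptor, a glutamate-gated channel, and its rapid antidepressant action has been linked to the prefrontal cortex, AMPA receptors, BDNF and its receptor, and the mTOR and eEF2 kinase pathways of protein synthesis. Stress hormones of the adrenal gland act on the same tissue through the glucocorticoid receptor, a transcription factor encoded by Nr3c1. Its classical targets include Fkbp5, whose product restrains the receptor, as well as Sgk1, Tsc22d3, Klf9 and Zbtb16. The endoplasmic reticulum holds a separate set of chaperones, led by Hspa5, that fold secreted and membrane proteins and are induced together when unfolded protein accumulates.

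The main pattern was a set of small differences, none of them past the threshold across all genes. Among 17517 genes tested, edgeR's quasi-likelihood test called 0 genes (0%) at a Benjamini-Hochberg adjusted p of 0.05, and the smallest adjusted p was 0.217. At an unadjusted p under 0.05 it listed 761 genes (4.34%), with 375 higher (2.14%) and 386 lower (2.20%) in ketamine non-responders, against 876 that an even spread of p-values would give. DESeq2, run on the same genes as another tool, called 7 genes at an adjusted p of 0.05. These were Hif3a, Fkbp5, Plin4, Klhl40, Gh and Prl, all lower in ketamine non-responders, and Sdf2l1, which was higher. The median log2 fold change over all tested genes was -0.0018, and all but the outermost 5% of genes on either side lay between -0.33 and 0.32. Total counts ran between 21706349 and 34585300 reads per library across the 6 libraries. Markers of cortical excitatory neurons (such as Slc17a7) stood at similar levels in both groups. The 20 tested ones summed to 3381 to 3416 CPM in ketamine non-responders and to 3423 to 3529 CPM in susceptible saline mice. These sums did not overlap between groups, and the median log2 fold change was -0.01. CPM here means a count scaled to library size after TMM normalization. Sample numbers in the titles fall into 5 unbroken runs, and only 1 run holds both groups, with 1 library each, so within a run the groups could be set against each other by a single pair only. With run as a covariate across all prefrontal libraries edgeR again called 0 genes. All values come from whole tissue, in which fewer cells of a type and less RNA per cell cannot be told apart.

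**Figure D1:**
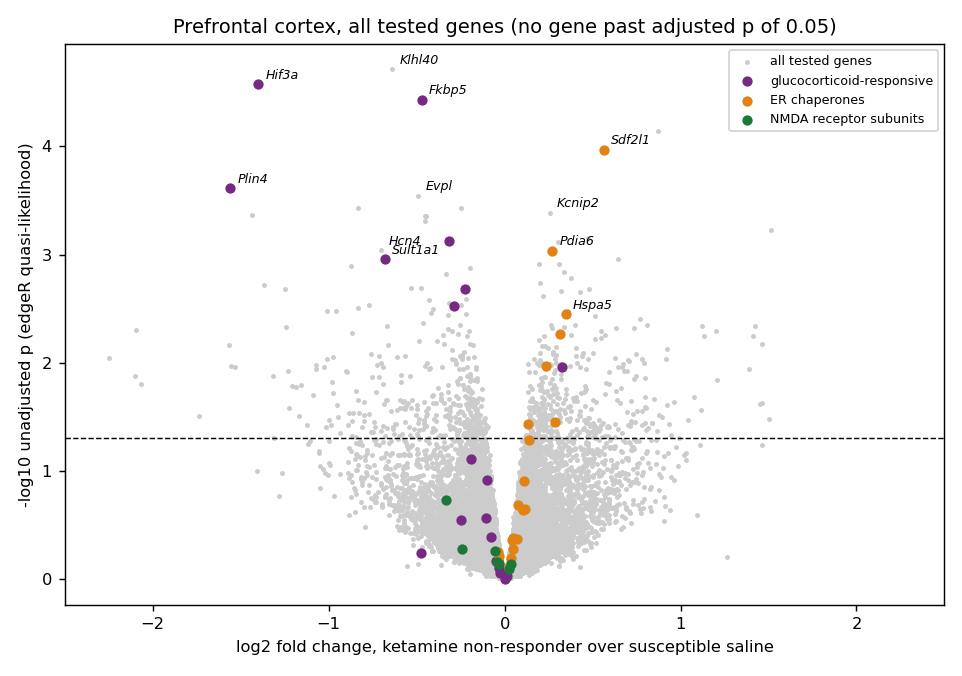
Log2 fold change (x axis, ketamine non-responder over susceptible saline) against the -log10 of the unadjusted edgeR p (y axis) for each tested prefrontal gene; the dashed line marks 0.05 and 5 genes beyond 2.5 on either side are not drawn. Hif3a, Fkbp5 and Plin4 lie at the upper left, Sdf2l1 at the upper right, and the NMDA receptor subunits lie near the bottom of the plot, all under the dashed line.

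Glucocorticoid-responsive genes were lower in ketamine non-responders as a group. Of 20 members, all tested, 18 had a negative log2 fold change, against 50.6% of all genes, and the median was -0.15. At an unadjusted p under 0.05, 7 were lower and 1 was higher, against 2.20% and 2.14% of all genes. None was past the adjusted threshold. In 7 members every ketamine non-responder library lay below every susceptible saline library, against 5.59% of all genes.

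Hif3a encodes a hypoxia-inducible factor subunit that acts largely as an inhibitor of that pathway. The gene stood at 2.505, 2.73 and 3.52 CPM in the ketamine non-responder libraries, against 7.02, 11.3 and 4.70 CPM in the susceptible saline libraries. The groups did not overlap, and the second susceptible library was the highest. The log2 fold change was -1.40 ± 0.27 (SE), with unadjusted p = 2.68e-05 and edgeR adjusted p = 0.217. Fkbp5, the co-chaperone that lowers the affinity of the glucocorticoid receptor for its hormone, stood at 21.7, 19.4 and 20.4 CPM in ketamine non-responders, against 23.9, 34.7 and 26.5 CPM in susceptible saline mice. Its log2 fold change was -0.47 ± 0.09 (SE), with unadjusted p = 3.71e-05 and edgeR adjusted p = 0.217. Again no library of one group reached the range of the other. Plin4, a lipid droplet coat protein, stood at 1.62, 1.39 and 1.13 CPM in ketamine non-responders and at 2.95, 7.32 and 1.49 CPM in susceptible saline mice (log2 fold change -1.56 ± 0.36 SE). Here the groups overlapped, since the third susceptible library lay inside the range of the non-responders.

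The other 4 members that were lower at an unadjusted p under 0.05 had smaller differences. Sult1a1, a sulfotransferase, stood at 2.86, 3.26 and 3.38 CPM in ketamine non-responders, against 4.34, 7.14 and 3.54 CPM in susceptible saline mice (-0.68 ± 0.19, log2 and SE). Mertk, a receptor kinase used by astrocytes and microglia to clear debris, stood at 29.8, 35.1 and 37.8 CPM in ketamine non-responders, against 41.4, 44.2 and 42.6 CPM in susceptible saline mice (-0.32 ± 0.08). Neither gene overlapped between the groups. Klf9, a hormone-induced zinc finger repressor, measured 161, 150.1 and 141 CPM in ketamine non-responders and 179.8, 165 and 185 CPM in susceptible saline mice (-0.23 ± 0.07). Zbtb16, a transcription factor also known as PLZF, measured 51.8, 56.4 and 50.8 CPM in ketamine non-responders and 69.4, 63.7 and 60.9 CPM in susceptible saline mice (-0.29 ± 0.09). Both were again fully separated between groups. Pdk4, a kinase that restrains pyruvate dehydrogenase, went the other way, at 9.81, 9.82 and 11.9 CPM in ketamine non-responders against 8.79, 7.84 and 8.61 CPM in susceptible saline mice (0.33 ± 0.12).

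The other classical targets did not reach an unadjusted p under 0.05. Tsc22d3, which encodes the anti-inflammatory protein GILZ, had a log2 fold change of -0.19 ± 0.10 with unadjusted p = 0.0767, although every ketamine non-responder library lay below every susceptible saline library. Sgk1, a kinase induced by corticosteroids, stood at 45.6, 40.4 and 39.1 CPM in ketamine non-responders, against 41.1, 51.5 and 41.7 CPM in susceptible saline mice, and the groups overlapped. The receptor gene Nr3c1 itself had a log2 fold change of 0.09 ± 0.11, and Crh, the corticotropin-releasing hormone gene, one of 0.05 ± 0.18. The second susceptible library was the highest of all 6 for Hif3a, Fkbp5, Plin4 and Sult1a1, and also for Mertk, Tsc22d3 and Sgk1. Without it the log2 fold changes were -1.004, -0.29, -0.73 and -0.32 for the first 4 of these genes, 14 of 20 members were lower and the list median was -0.08. That library also carried choroid plexus transcripts, described further on, and whether these had a part in the difference was not tested.

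**Figure D2:**
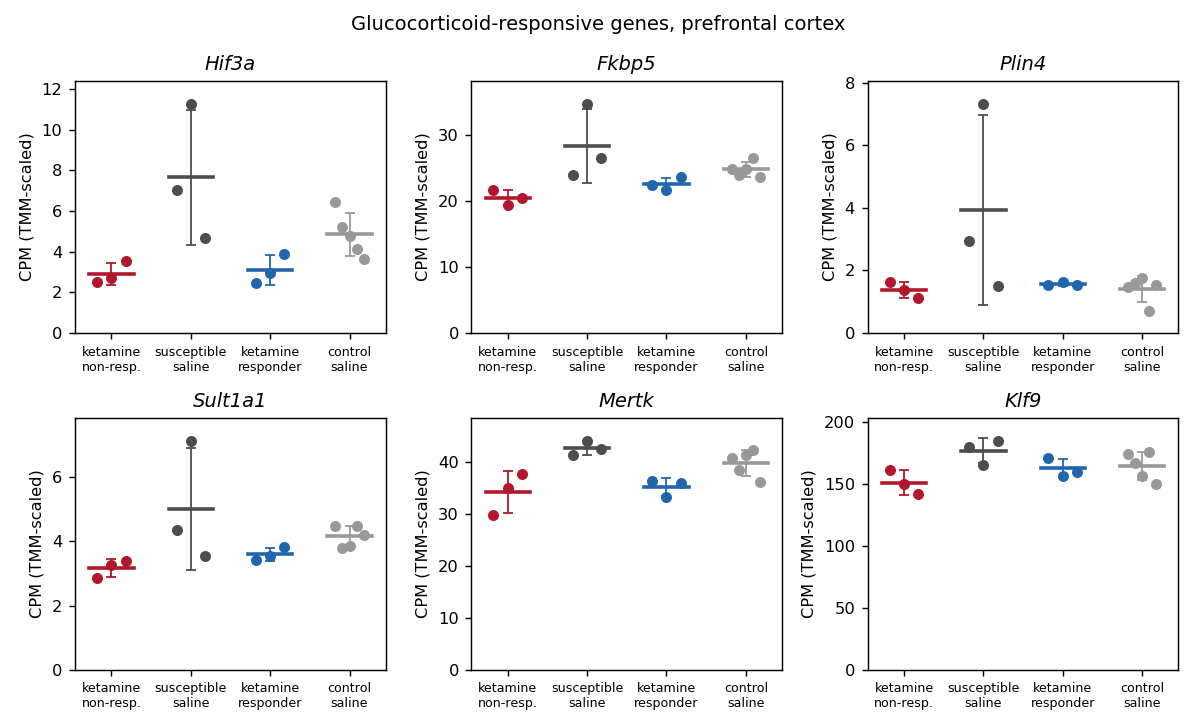
CPM (y axis, from 0) of 6 glucocorticoid-responsive genes in each prefrontal library; points are libraries, bars the group mean and whiskers the SD (3 libraries each, 5 for control saline). Ketamine non-responder points lie below the susceptible saline points for Hif3a, Fkbp5, Sult1a1, Mertk and Klf9, while Plin4 overlaps, and the ketamine responder mean lies between the other 2 susceptible groups in each panel.

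Endoplasmic reticulum chaperone genes showed the opposite direction. Of 20 members, all tested, 18 had a positive log2 fold change, against 49.4% of all genes, with a median of 0.11. In 8 members the non-responder libraries lay fully above the susceptible saline range, against 5.14% of all genes. At an unadjusted p under 0.05, 7 were higher and 0 lower, against 2.14% and 2.20% of all genes, none past the adjusted threshold. The 7 were Sdf2l1, Pdia6, Hspa5, Creld2, Manf, Pdia4 and Calr. The upstream 250 bases of 4 of them are shown because they carry the endoplasmic reticulum stress element, the sequence bound by NF-Y and ATF6, searched as CCAAT and CCACG with 9 bases between them on either strand. Capitals mark the match; the sequences are RefSeq promoter windows on GRCm38.p6, read 5′ to 3′ on the strand of the gene and ending at the base before its annotated start. Hspa5 lies at chr2:34771840-34772089 (plus strand), Pdia6 at chr12:17266339-17266588 (plus strand), Creld2 at chr15:88819396-88819645 (plus strand) and Calr at chr8:84846932-84847181 (minus strand).
Hspa5: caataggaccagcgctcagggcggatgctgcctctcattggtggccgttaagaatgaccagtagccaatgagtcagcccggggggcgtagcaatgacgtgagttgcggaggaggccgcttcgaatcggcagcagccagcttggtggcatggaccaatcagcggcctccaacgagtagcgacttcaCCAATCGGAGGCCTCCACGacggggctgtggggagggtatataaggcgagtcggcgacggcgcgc
Pdia6: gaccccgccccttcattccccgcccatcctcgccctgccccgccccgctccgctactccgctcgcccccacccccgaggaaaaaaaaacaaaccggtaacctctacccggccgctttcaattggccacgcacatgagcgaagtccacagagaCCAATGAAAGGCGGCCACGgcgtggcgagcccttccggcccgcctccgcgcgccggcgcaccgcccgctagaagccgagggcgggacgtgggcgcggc
Creld2: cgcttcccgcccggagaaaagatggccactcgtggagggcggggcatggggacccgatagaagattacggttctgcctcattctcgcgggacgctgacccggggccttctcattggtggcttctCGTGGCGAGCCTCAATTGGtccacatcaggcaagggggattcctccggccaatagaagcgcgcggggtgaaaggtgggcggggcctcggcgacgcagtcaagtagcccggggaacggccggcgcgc
Calr: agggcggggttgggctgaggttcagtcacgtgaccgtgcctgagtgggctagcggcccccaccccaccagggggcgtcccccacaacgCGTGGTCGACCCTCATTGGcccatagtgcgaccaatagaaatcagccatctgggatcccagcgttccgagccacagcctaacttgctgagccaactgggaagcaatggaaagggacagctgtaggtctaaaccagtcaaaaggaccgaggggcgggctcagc

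The match ended 46 bases before the annotated start in Hspa5, 79 in Pdia6, 107 in Creld2 and 143 in Calr. Of the 18 chaperone members with a promoter in the RefSeq table, 7 held the element, against 0.13% of 27025 genes. The other 3 holders, Canx, Dnajc3 and Hsp90b1, had no unadjusted p under 0.05. Sdf2l1 had no match in this window, which says only that these letters are not there. For the glucocorticoid receptor, the palindrome of AGNACA and TGTNCT with 3 bases between them, searched in the same way, was found in 1 of 19 windows of the glucocorticoid-responsive list, that of Sgk1, against 0.074% of genes. The windows of Fkbp5, Hif3a and Plin4 held no such match. Sites for this receptor often lie far from the start, outside windows of this length.

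Sdf2l1, a partner of Hspa5 in folding new proteins, stood at 12.0, 8.48 and 9.59 CPM in ketamine non-responders, against 7.05, 6.40 and 6.93 CPM in susceptible saline mice. The log2 fold change was 0.56 ± 0.12 (SE), with unadjusted p = 0.000108 and edgeR adjusted p = 0.378. The groups were fully separated. Hspa5, the main chaperone of the compartment (also called BiP), stood at 298, 237 and 241 CPM in ketamine non-responders and at 199.6, 191 and 221 CPM in susceptible saline mice (0.35 ± 0.11). Pdia6, a disulfide isomerase, measured 124, 110.1 and 112 CPM in ketamine non-responders and 91.9, 90.8 and 104 CPM in susceptible saline mice (0.27 ± 0.07). Creld2, a secreted stress-induced protein, measured 18.0, 12.8 and 15.0 CPM in ketamine non-responders and 11.8, 12.7 and 12.4 CPM in susceptible saline mice (0.32 ± 0.10). In each of these genes the first ketamine non-responder library was the highest of the 6, while the other non-responder libraries still lay above every susceptible library. Manf, a neurotrophic factor retained in the compartment, had a log2 fold change of 0.23 ± 0.09. Pdia4, another isomerase, had 0.29 ± 0.13, and Calr, the calcium-binding chaperone calreticulin, had 0.13 ± 0.06.

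Single libraries weighed on the chaperone count. Leaving out the first ketamine non-responder library left 15 of 20 members higher, 3 of them at an unadjusted p under 0.05, with a median of 0.05. Leaving out the second susceptible library left 4 members at that level and a median of 0.09. Cytosolic heat shock genes, which respond to misfolding outside the reticulum, were also mostly higher. Of 18 members 17 were higher, against 49.4% of all genes, with a median of 0.11. Without the first non-responder library 13 were higher, 0 of them at an unadjusted p under 0.05, with a median of 0.066, and without the second non-responder library 6 were at that level. With all libraries, Hspa1b and Hspe1 had an unadjusted p under 0.05, at 0.41 ± 0.16 and 0.20 ± 0.08. Over all genes 2.14% were higher at that level. Hspa1b shares nearly all its coding sequence with Hspa1a, so reads can be split between them.

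**Figure D3:**
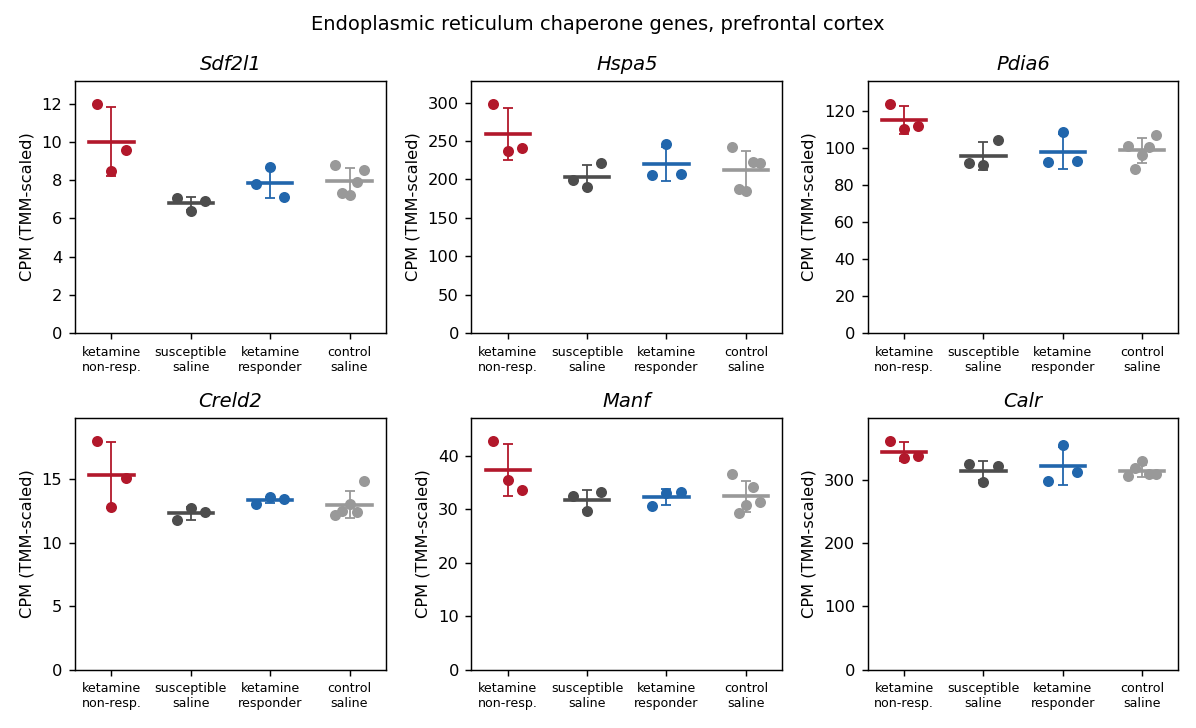
CPM (y axis, from 0) of 6 endoplasmic reticulum chaperone genes in each prefrontal library; points are libraries, bars the group mean and whiskers the SD (3 libraries each, 5 for control saline). All 3 ketamine non-responder points lie above all 3 susceptible saline points in each panel, with little space between the groups in Creld2 and Manf.

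Activity-regulated genes were mostly higher than in susceptible saline mice, with wide spread between libraries. Of 29 immediate early genes, 23 had a positive log2 fold change (79.3%, against 49.4% of all genes) and the median was 0.18. At an unadjusted p under 0.05, 3 were higher and 0 lower, against 2.14% and 2.20% of all genes. Fully above the susceptible saline range lay 10, against 5.14% of all genes. A fit of the 6 libraries alone, in which the other prefrontal groups add nothing to the spread, gave 12 higher and 1 lower. Nr4a2, a nuclear receptor induced by neuronal activity, stood at 10.6, 6.93 and 9.01 CPM in ketamine non-responders, against 5.59, 6.49 and 6.47 CPM in susceptible saline mice (0.52 ± 0.21). Fosl2, a Fos family factor, measured 34.1, 26.7 and 31.1 CPM in ketamine non-responders and 21.0, 23.03 and 24.8 CPM in susceptible saline mice (0.42 ± 0.18). Npas4, which shapes inhibitory synapses after depolarization, measured 12.2, 15.4 and 20.9 CPM in ketamine non-responders and 14.0, 10.8 and 9.49 CPM in susceptible saline mice (0.50 ± 0.24), with overlap. Fos and Egr1 were fully separated between groups but variable across the prefrontal libraries, at 0.68 ± 0.51 and 0.54 ± 0.28. Arc, an organizer of AMPA receptor traffic, ranged between 47.8 and 73.7 CPM in ketamine non-responders and between 37.7 and 65.8 CPM in susceptible saline mice, with a log2 fold change of 0.16 ± 0.43. Homer1, a postsynaptic scaffold, had 0.23 ± 0.20. Leaving out any 1 of 4 libraries (non-responder library 1 or 3, susceptible library 1 or 2) left 1 immediate early gene at an unadjusted p under 0.05, and without the third non-responder library the median was 0.10.

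Genes of the NMDA receptor, which ketamine blocks, and of other synaptic receptors and proteins differed little. None of 7 tested NMDA receptor subunit and associated genes, 18 AMPA receptor genes, 12 GABA-A receptor subunits, 7 metabotropic glutamate receptors, 22 postsynaptic scaffold and kinase genes or 24 vesicle release genes had an unadjusted p under 0.05, and none was called by edgeR at an adjusted p of 0.05. Their medians were -0.04, -0.04, -0.08, -0.05, -0.02 and -0.01 in that order. Grin1, the obligatory NMDA receptor subunit, stood at 418, 361 and 384 CPM in ketamine non-responders and at 398, 434 and 377 CPM in susceptible saline mice, with a log2 fold change of -0.06 ± 0.09. Grin2a (-0.33 ± 0.24) and Grin2b (-0.24 ± 0.38), the subunits that set channel kinetics, varied more between libraries than between groups. For Grin2b the libraries ran between 67.5 and 135 CPM in ketamine non-responders and between 84.8 and 139 CPM in susceptible saline mice. The AMPA receptor subunits Gria1 and Gria2 had -0.04 ± 0.09 and -0.08 ± 0.07. A p that misses the threshold does not show equal levels, and these standard errors bound what could have been seen.

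Among 25 genes of mTOR and eEF2 signalling, 18 were lower (50.6% of all genes were) with a median of -0.03, and 2 were lower at an unadjusted p under 0.05 (2.20% of all genes). That count was 0 without the first non-responder library and 1 by DESeq2. Eef2k, the kinase that halts elongation by phosphorylating eEF2, stood at 37.1, 38.3 and 38.9 CPM in ketamine non-responders, against 43.8, 47.7 and 40.7 CPM in susceptible saline mice (-0.21 ± 0.09). Rictor, a scaffold of the second mTOR complex, had -0.19 ± 0.09. Neither overlapped between groups, whereas Mtor (-0.07 ± 0.07) and Eef2 (0.04 ± 0.05) did. Of 9 tested neurotrophin and receptor genes, 2 were higher at an unadjusted p under 0.05 (2.14% of all genes), and 0 with run as covariate. Ntf3, which encodes neurotrophin-3, stood at 0.952, 1.59 and 1.27 CPM in ketamine non-responders, against 0.695, 0.704 and 0.884 CPM in susceptible saline mice (0.75 ± 0.28). Bdnf itself overlapped, at 40.0, 50.3 and 38.7 CPM in ketamine non-responders and 35.7, 38.0 and 47.9 CPM in susceptible saline mice (0.09 ± 0.17), and its receptor gene Ntrk2 had -0.06 ± 0.06.

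Ion channel and clock genes made up several of the lower genes. Of 30 voltage-gated potassium and HCN channel genes, 23 were lower (50.6% of all genes were), 3 of them at an unadjusted p under 0.05 (2.20% of all genes), with a median of -0.08. That count was 1 with run as covariate and without the first or the third susceptible or the first or the second non-responder library. Hcn4, a pacemaker channel, stood at 2.40, 3.42 and 2.95 CPM in ketamine non-responders, against 4.10, 5.27 and 4.84 CPM in susceptible saline mice (-0.70 ± 0.19, unadjusted p = 0.000915). Kcnd2, a pore subunit of A-type channels, measured 86.5, 90.3 and 94.6 CPM in ketamine non-responders and 106, 98.2 and 104 CPM in susceptible saline mice (-0.19 ± 0.08). Kcnip2, an accessory subunit of A-type channels, was higher instead, at 101, 98.9 and 102 CPM in ketamine non-responders against 87.5, 79.6 and 85.5 CPM in susceptible saline mice (0.26 ± 0.06). All 3 genes were fully separated between groups. Of 18 core clock genes 2 were lower and 0 higher at an unadjusted p under 0.05, against 2.20% and 2.14% of all genes. The clock median was -0.06, or 0.02 with run as covariate. Nr1d1, the repressor REV-ERB alpha, stood at 86.3, 80.7 and 92.9 CPM in ketamine non-responders, against 113, 133 and 108 CPM in susceptible saline mice (-0.45 ± 0.11). Ciart, another clock repressor, measured 9.38, 9.17 and 10.9 CPM in ketamine non-responders and 12.1, 16.1 and 12.3 CPM in susceptible saline mice (-0.46 ± 0.15). Nr1d1 overlaps Thra on the other strand and the kit does not mark strand, so their shared reads cannot be assigned. The labels give no hour of tissue collection.

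Some of the genes with the smallest p belonged to no list. Klhl40, a Kelch family adaptor best known from muscle, had the smallest p of all, at 6.31, 5.71 and 6.44 CPM in ketamine non-responders against 8.86, 11.1 and 8.79 CPM in susceptible saline mice (-0.64 ± 0.12, unadjusted p = 1.95e-05, edgeR adjusted p = 0.217). Evpl, an envoplakin of cell junctions, measured 6.98, 6.52 and 6.76 CPM in ketamine non-responders and 9.66, 9.62 and 9.21 CPM in susceptible saline mice (-0.49 ± 0.12). Foxo3, a transcription factor restrained by growth factor signalling, measured 85.3, 86.7 and 91.1 CPM in ketamine non-responders and 109.8, 104 and 99.1 CPM in susceptible saline mice (-0.25 ± 0.06). Each of these was fully separated. Fam78a (-0.45 ± 0.11) and the ubiquitin ligase Hecw2 (-0.45 ± 0.11) completed the lower genes chosen by smallest p. On the higher side stood the precursor-cell factor Sox21 (0.47 ± 0.12), the transcriptional repressor Bcl6b (0.65 ± 0.18) and the scaffold Caskin2 (0.30 ± 0.08). Further members were Plekho2 (0.34 ± 0.09), Gramd3 (0.31 ± 0.09), Ankrd6 (0.26 ± 0.07), Kctd1 (0.20 ± 0.06) and the postsynaptic protein Lzts3 (0.19 ± 0.05). In all 8 the ketamine non-responder libraries lay above every susceptible saline library.

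Microglial and immune genes were mostly higher by small amounts. Of 18 microglial markers 17 were higher (49.4% of all genes were), with a median of 0.13, and 4 were higher at an unadjusted p under 0.05 (2.14% of all genes). Their summed level ran over 516 to 559 CPM in ketamine non-responders and over 489 to 515 CPM in susceptible saline mice. Cx3cr1, the fractalkine receptor, stood at 48.3, 52.9 and 53.0 CPM in ketamine non-responders, against 45.99, 43.5 and 46.9 CPM in susceptible saline mice (0.18 ± 0.07). Tmem119, a marker of resident microglia, measured 19.9, 20.3 and 20.7 CPM in ketamine non-responders and 16.1, 18.9 and 18.5 CPM in susceptible saline mice (0.19 ± 0.08). Aif1, which encodes Iba1, had 0.32 ± 0.14, and the integrin gene Itgam had 0.21 ± 0.09 with overlap. Of 21 tested interferon response and antigen presentation genes 20 were higher, with a median of 0.29 and 3 at an unadjusted p under 0.05, to be read against the same shares. H2-K1 (0.33 ± 0.12) and H2-D1 (0.30 ± 0.12), which encode classical MHC class I chains, were fully separated; they belong to a family of close copies, so their counts are uncertain. Irf7, the master factor of interferon induction, stood at 2.43, 1.83 and 2.66 CPM in ketamine non-responders, against 1.60, 1.16 and 1.95 CPM in susceptible saline mice (0.59 ± 0.23). With run as covariate 1 microglial and 2 interferon genes were at that level. The counts moved with single libraries: leaving 1 library out gave 1 to 5 microglial markers and 2 to 7 interferon genes at that level, all higher. The count of 1 microglial marker came without the second susceptible or non-responder library 3, a count of 2 without the second non-responder library, and the 7 interferon genes without the first non-responder library.

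Oligodendrocyte lineage genes were mostly higher, both in precursors and in myelin. Of 11 precursor markers 8 were higher with a median of 0.12, 3 of them at an unadjusted p under 0.05. Over all genes, 49.4% were higher and 2.14% were higher at that level, the shares to set beside each count in this paragraph. Olig2, the lineage factor, stood at 25.2, 18.8 and 21.1 CPM in ketamine non-responders, against 17.4, 16.0 and 16.7 CPM in susceptible saline mice (0.38 ± 0.11). Gpr17, a receptor of committed precursors, measured 50.1, 44.8 and 46.2 CPM in ketamine non-responders and 37.9, 37.8 and 41.7 CPM in susceptible saline mice (0.27 ± 0.09). Olig1 had 0.19 ± 0.09, and all 3 were fully separated. Of 18 myelin markers 17 were higher with a median of 0.25, and 0 were higher at an unadjusted p under 0.05 by edgeR and 1 by DESeq2. Mbp, myelin basic protein, stood at 1107, 644 and 735 CPM in ketamine non-responders and at 790.5, 701 and 635 CPM in susceptible saline mice, so the first non-responder library alone stood apart. Without that library 12 of 18 myelin markers were higher and the median was 0.02, and at an unadjusted p under 0.05 10 were higher without the second non-responder library, 3 without the first susceptible library and 2 without non-responder library 3. Enpp2, the single lower one, is also made by choroid plexus and was highest in the second susceptible library. Endothelial markers had a median of 0.15 (16 of 17 higher), astrocyte markers 0.01 (9 of 16 higher) and GABA interneuron markers -0.02 (8 of 19 higher).

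Genes of energy metabolism and protein synthesis leaned higher by small amounts, in a direction that turned for some of them with the run of sample numbers. All 14 tested mitochondrial genome genes were higher with a median of 0.08, as were 62 of 74 nuclear oxidative phosphorylation genes with a median of 0.05 and 76 of 78 ribosomal protein genes with a median of 0.07. None of them had an unadjusted p under 0.05. With run as covariate 25 of 74 oxidative phosphorylation genes and 24 of 78 ribosomal protein genes were higher, with medians of -0.013 and -0.024, while 13 of 14 mitochondrial genome genes were higher. Without the first non-responder library 33 of 74 oxidative phosphorylation genes were higher, with a median of -0.0078. Since run and group are nearly confounded, their parts cannot be told apart. Of the remaining lists, monoamine receptors had 1 gene higher and 2 lower among 23, hypoxia-responsive genes 2 higher among 13 (0 without the first non-responder library), and DNA methylation, Tet and Gadd45 genes 1 higher and 1 lower among 14 at that level. MAP kinase phosphatase and Sprouty genes (17 tested) and opioid receptors and precursors (8 tested) had none. Cholesterol and fatty acid synthesis genes leaned lower, in 18 of 22 with a median of -0.03. Of these, 2 had an unadjusted p under 0.05 (0 without the first non-responder library). As shares to set beside the counts in this paragraph, 49.4% of all genes were higher and 50.6% lower. At an unadjusted p under 0.05, 2.14% of all genes were higher and 2.20% lower.

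**Figure D4:**
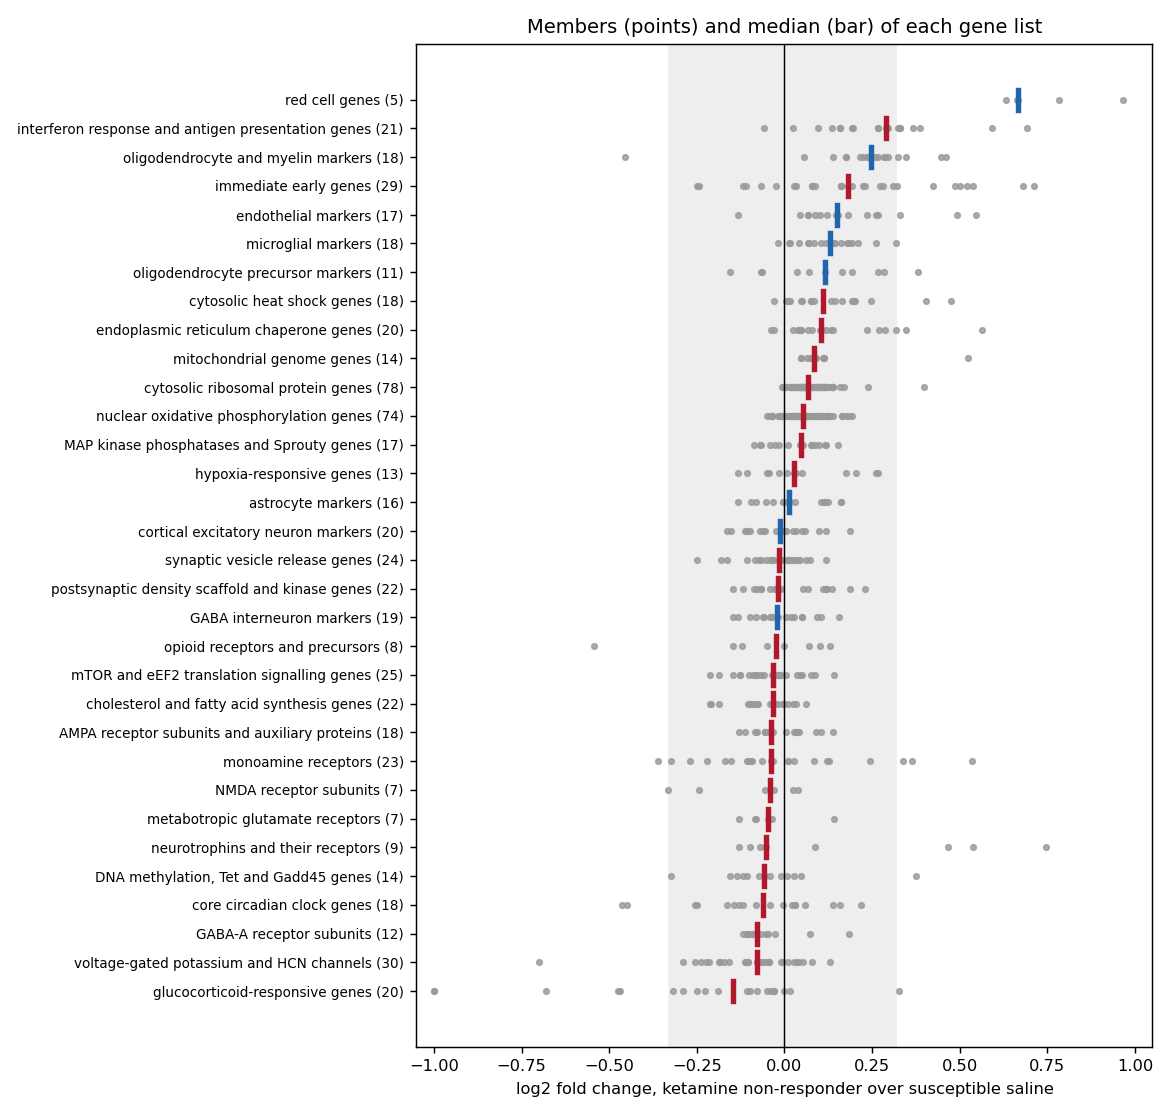
Log2 fold change (x axis, ketamine non-responder over susceptible saline) of each tested member (grey points) and the median (bar; red for process lists, blue for cell markers) of each process list and the main cell marker lists, with the number tested in brackets; points beyond 1 on either side are drawn at the edge, and choroid plexus and pituitary genes are not drawn. The grey band spans the 5th to 95th percentile of all genes; red cell genes lie highest, glucocorticoid-responsive genes lowest, and most members of most lists fall within the band.

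Markers of tissue next to the cortex differed in single libraries or between whole groups. Of 16 choroid plexus markers 9 were tested, and all 9 were lower, 8 at an unadjusted p under 0.05. Over all genes 50.6% were lower, and 2.20% at that level. Ttr, the transthyretin gene that defines this tissue, stood at 0.776, 0.448 and 0.116 CPM in ketamine non-responders, against 1.63, 464 and 1.12 CPM in susceptible saline mice. Kl, the gene of the anti-ageing protein klotho, measured 1.66, 2.57 and 2.28 CPM in ketamine non-responders and 1.70, 14.0 and 3.02 CPM in susceptible saline mice. The second susceptible library stood far above the other 5 for these transcripts; without it 4 of 9 were lower and 0 had an unadjusted p under 0.05, and none had one in a fit of the 6 libraries alone. Red cell genes were higher in 5 of 5 (49.4% of all genes were), 3 of them at an unadjusted p under 0.05 (2.14% of all genes). That count was 0 without the second or the third susceptible library or the first non-responder library, 5 without non-responder library 3, and 1 in the fit of 6 libraries or with run as covariate. The median was 0.67, and 0.29 without the first non-responder library. Alas2, the erythroid enzyme of heme synthesis, stood at 4.41, 2.16 and 3.26 CPM in ketamine non-responders and at 2.85, 1.96 and 1.49 CPM in susceptible saline mice. Hbb-bs, a globin gene with a close copy in Hbb-bt, measured 40.8, 21.1 and 17.4 CPM in ketamine non-responders and 21.95, 13.5 and 10.2 CPM in susceptible saline mice; the first non-responder library was the highest. Striatal and thalamic markers had medians of 0.09 and 0.08, mural and meningeal markers one of 0.14, ependymal markers one of -0.15 and olfactory bulb markers one of -0.04. Leaving out 1 library turned some of these signs. The mural and meningeal median was -0.014 without the first susceptible library and -0.029 without non-responder library 3, the striatal one was -0.071 without that same library, and the ependymal one was 0.028 without the second susceptible library. Of 2 tested leukocyte markers none had an unadjusted p under 0.05.

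Pituitary hormone genes differed between whole groups. Growth hormone (Gh) had 1, 0 and 3 counts in the ketamine non-responder libraries, against 130, 39 and 38 counts in the susceptible saline libraries. Prolactin (Prl) had 0 counts in all 3 ketamine non-responder libraries, against 17, 7 and 6 counts in the susceptible saline libraries. With a floor of 3 counts over the group, Prl was at least 10.5-fold lower in ketamine non-responders. The ketamine responder libraries were at the same low level, with 0, 1 and 1 Gh counts and 0 Prl counts each, while control saline libraries held between 1 and 120 Gh counts and between 1 and 22 Prl counts. The other tested members, Pomc and Tshb, overlapped between ketamine non-responders and susceptible saline mice. These are counting values only, and the source of the transcripts was not tested.

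The levels in ketamine responders and control saline mice placed these differences. Against ketamine responders, edgeR called 0 genes (0%) at an adjusted p of 0.05 with 795 at an unadjusted p under 0.05 (4.54%), and DESeq2 also called 0. Against control saline mice it called 0 genes (0%) with 837 (4.78%), where DESeq2 called 8. The comparisons share the ketamine non-responder libraries, so their values are set side by side only. Hif3a averaged 2.92 ± 0.535 CPM in ketamine non-responders, 3.12 ± 0.730 CPM in ketamine responders, 7.66 ± 3.33 CPM in susceptible saline mice and 4.85 ± 1.07 CPM in control saline mice (SD). Fkbp5 averaged 20.5 ± 1.17 CPM in ketamine non-responders, 22.5 ± 0.993 CPM in ketamine responders, 28.4 ± 5.62 CPM in susceptible saline mice and 24.8 ± 1.09 CPM in control saline mice (SD). For both genes the non-responders differed little from the responders (-0.07 ± 0.29 and -0.13 ± 0.10) and more from control (-0.70 ± 0.25 and -0.27 ± 0.09). Plin4 had its highest mean in susceptible saline mice, with values for non-responders of -0.20 ± 0.40 against responders and -0.08 ± 0.36 against control. Klhl40 was -0.10 ± 0.13 against responders and -0.48 ± 0.11 against control.

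The chaperone genes behaved otherwise, with slightly higher list medians, 0.10 against responders and 0.08 against control. Libraries overlapped for most named members. For Hspa5, responder library 2 (245.6 CPM) and control library 1 (242.6 CPM) lay above non-responder libraries 2 and 3 (237 and 241 CPM). Sdf2l1, Creld2 and Pdia4 overlapped with both groups, Manf with control and Calr with responders. Pdia6 overlapped with neither. Non-responder library 1 was the highest in each of these genes. Sdf2l1 averaged 10.0 ± 1.80 CPM in ketamine non-responders, 7.87 ± 0.789 CPM in ketamine responders, 6.79 ± 0.346 CPM in susceptible saline mice and 7.97 ± 0.689 CPM in control saline mice (SD). Hspa5 averaged 259 ± 34.1 CPM in ketamine non-responders, 219.8 ± 22.3 CPM in ketamine responders, 204 ± 15.5 CPM in susceptible saline mice and 212 ± 25.1 CPM in control saline mice (SD). Against responders the log2 fold changes were 0.35 ± 0.12 for Sdf2l1, 0.24 ± 0.11 for Hspa5 and 0.23 ± 0.07 for Pdia6, and against control they were 0.33 ± 0.11, 0.29 ± 0.10 and 0.22 ± 0.06. All 6 had an unadjusted p under 0.05 and none passed the adjusted threshold. Evpl and Foxo3 had the same kind of pattern on the lower side, at -0.42 ± 0.12 and -0.21 ± 0.06 against responders and -0.33 ± 0.11 and -0.19 ± 0.05 against control. Hcn4 was low in both ketamine groups, at 0.09 ± 0.20 against responders and -0.78 ± 0.17 against control. Immediate early genes as a list had a median of 0.0023 against responders and -0.22 against control. Arc had -0.78 ± 0.43 against responders (unadjusted p = 0.0858) and -0.88 ± 0.39 against control (unadjusted p = 0.0376). Ntf3 had 0.97 ± 0.29 against responders and 0.63 ± 0.24 against control. Myelin markers had a median of -0.40 against responders and 0.32 against control.

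The same contrast was then read in the other dissected regions, each with 3 libraries a group, in 1 fit of all 99 libraries. No gene (0%) among 19024 tested differed between the prefrontal contrast and that of the nucleus accumbens, ventral hippocampus or basolateral amygdala at an edgeR adjusted p of 0.05. At an unadjusted p under 0.05 there were 440 (2.31%), 406 (2.13%) and 287 (1.51%). The prefrontal contrast itself had 297 of 19024 genes at that level in this fit, against 761 of 17517 in the prefrontal fit. A count of 0 therefore does not show that the prefrontal difference equals that in the other regions. Glucocorticoid-responsive genes were lower in 19, 19 and 18 of 20 in these regions, with medians of -0.44, -0.36 and -0.26 and with 9, 6 and 6 lower at an unadjusted p under 0.05, against 2.98%, 1.71% and 3.58% of all genes. Hif3a had log2 fold changes of -1.81 ± 0.44, -2.06 ± 0.45 and -1.72 ± 0.43. In each region a single susceptible library stood far above the others for Hif3a. The susceptible values were 4.83, 5.31 and 14.2 CPM in the accumbens and 14.9, 6.44 and 5.81 CPM in the hippocampus. In the amygdala they were 7.42, 15.8 and 8.04 CPM. The same library was the highest for Plin4 in each region. All non-responder libraries lay below every susceptible library for Hif3a. In this larger fit the prefrontal contrast had 4 glucocorticoid-responsive genes lower and 2 chaperone genes higher at that level. In the hippocampus Hif3a passed the threshold (edgeR adjusted p = 0.0176), 1 of 24 genes called there (0.126%), of which 20 were higher. The hippocampal contrast also had 12 of 12 thalamic and 16 of 16 choroid plexus markers higher, with medians of 1.58 and 2.58. At an unadjusted p under 0.05, 11 and 13 of them were higher, against 2.03% of all genes. Whether adjacent tissue had a part in the hippocampal values was not tested. Fkbp5 had -0.65 ± 0.16, -0.55 ± 0.16 and -0.18 ± 0.16 in the same order of regions.

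Chaperone genes were higher in 16, 20 and 17 of 20, with medians of 0.19, 0.24 and 0.13 and with 5, 10 and 3 higher at an unadjusted p under 0.05, against 3.52%, 2.03% and 1.58% of all genes. Hspa5 had 0.51 ± 0.17, 0.56 ± 0.17 and 0.32 ± 0.17, and Sdf2l1 had 0.47 ± 0.26, 0.51 ± 0.25 and 0.65 ± 0.25. Ciart was lower throughout, at -0.45 ± 0.18, -0.37 ± 0.19 and -0.45 ± 0.19. Immediate early genes did not share a direction, with medians of -0.09, 0.01 and 0.10. Gh was lower in ketamine non-responders of every region, with 0.381 CPM as the highest value outside the prefrontal cortex, against 0.837 CPM as the lowest in susceptible saline mice. In the amygdala it stood at 0.0886, 0 and 0.0275 CPM in ketamine non-responders, against 11.7, 8.37 and 9.25 CPM in susceptible saline mice. In the accumbens 4 genes were called in all (0.0210%). The Gh difference passed the threshold in the amygdala (edgeR adjusted p = 0.00162), as did Prl, 2 of 5 genes called in that region (0.0263%).

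**Figure D5:**
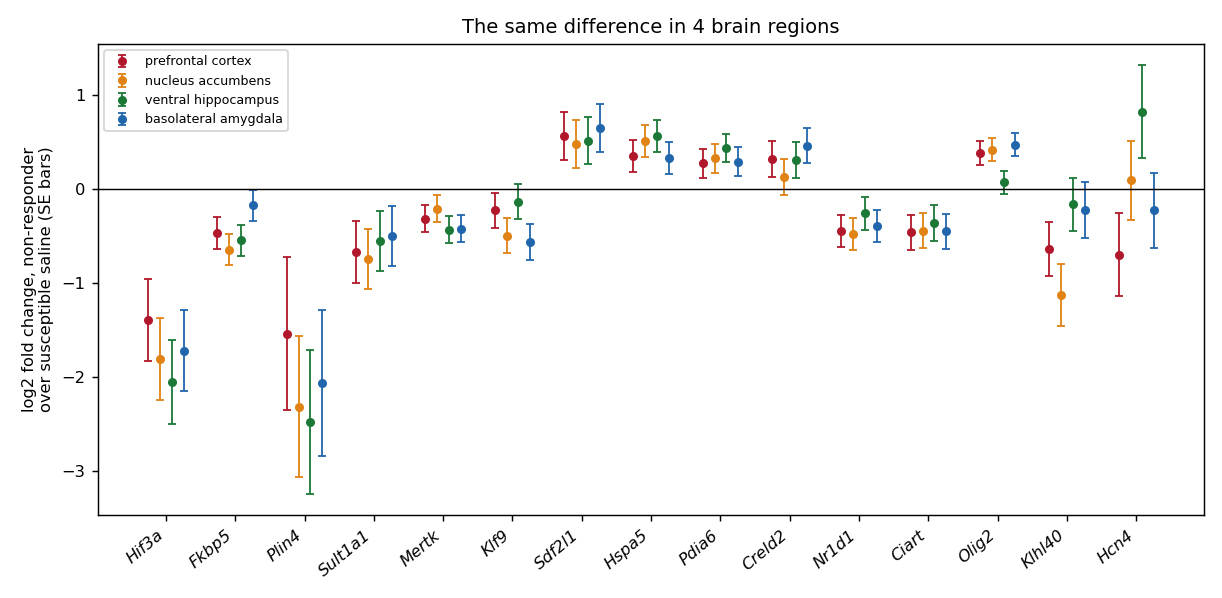
Log2 fold change (y axis, ketamine non-responder over susceptible saline) with its SE for 15 named genes in the prefrontal cortex and the other 3 regions, all from the 99-library fit. Hif3a, Fkbp5, Plin4 and Sult1a1 lie below 0 and Sdf2l1, Hspa5, Pdia6 and Creld2 above 0 in all 4 regions, while Hcn4 has values on both sides of 0.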

How the data were processed

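Total RNA of dissected tissue was made into poly-A libraries with a kit that does not mark strand and read as 50 bp pairs, per the labels' protocols. The deposited values are raw counts of reads per gene; per the submitters' processing notes, Bowtie2 2.1.0, TopHat2 2.0.9 and HTSeq 0.6.0 were used with build NCBIM37, while the annotation release and counting settings are not given in the sources used here. Of 37991 gene IDs, 32919 (86.6%) matched a symbol.

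Counts were analysed in R 4.3.3 with edgeR 4.0.16 (filterByExpr with a minimum count of 10, TMM scaling, quasi-likelihood test, prior count 2) in 1 fit of 25 prefrontal libraries in 7 groups with 18 residual degrees of freedom. Other groups thereby add to the estimate of spread. The SE of a log2 fold change is its size divided by the square root of F. DESeq2 1.42.0 was an alternative test. The scripts were tested on simulated data. Library totals across the prefrontal cortex ran between 18538518 and 39723998 counts. Counts of replicates differed beyond sampling noise in all 6 pairs (chi-square of at least 4.88 for each degree of freedom), so each library was counted once. P-values weigh a group difference against the spread between libraries, each pooled from 2 mice. That spread was estimated over all groups in a fit.

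Genes named outside the lists were the 12 with the smallest p in each direction at an average of at least 1 log2 CPM, clones and predicted genes left out. From each list up to 4 members with the smallest p are named, with fixed ketamine and stress genes; others that complete a count were picked with their values known. A few genes that the rule selects are not reported here. The members and the 40 lists (24 of processes, 16 of cell markers) were chosen with earlier results of these data known. Alternatives changed the scaling, filter, robust fitting, libraries fitted and run of sample numbers, or left out 1 library. Promoter windows come from RefSeq on GRCm38.p6, another build than that of the counts, and no coordinates were converted.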

Additional observations from a re-analysis of the deposited data

Results flagged for a closer look

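Plin4, one of the glucocorticoid-responsive genes, had a control saline library that stood apart. It measured 0.7 CPM there, against 1.48 CPM in the nearest of the other control libraries, a gap of 0.733 of the range over the 5 control libraries. Chance gives such a gap in about 1 of 20 groups. Many genes whose control values are used here were checked in the same way, and only Plin4 was flagged. A flag of this kind can therefore arise by chance. The library enters the comparison with control saline mice, in which Plin4 had no unadjusted p under 0.05, and does not enter the contrast of ketamine non-responders with susceptible saline mice other than through the shared estimate of spread.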

How the results depend on the processing

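For ketamine non-responders against susceptible saline mice, the count at an edgeR adjusted p of 0.05 stayed at 0 under median-ratio scaling, no filter, run as covariate, non-robust fitting and a fit of the 6 libraries alone. DESeq2 gave 7, and leaving out 1 library gave 0 to 2: 1 without susceptible replicate 1 (Fkbp5) and 2 without susceptible replicate 3 (Hif3a and Plin4). The count lower at an unadjusted p under 0.05 ran between 245, without the first non-responder library, and 431. Against control saline mice the count was 8 by DESeq2, 1 with run as covariate (Gadd45b) and 0 to 1 without 1 library, where Csrnp1 was called without the first control library and Prl without the fifth. The prefrontal difference minus that in ventral hippocampus gave 0 to 4 genes without 1 library, with 4 lacking the third hippocampal non-responder library. Of 984 values for 82 genes, 973 kept their direction. The 11 that reversed were all small. Leaving out 1 library gave log2 fold changes between -0.17 and 0.011 for Sgk1, -0.0023 and 0.16 for Nr3c1, -0.040 and 0.15 for Crh, -0.044 and 0.37 for Arc, -0.038 and 0.22 for Bdnf, -0.11 and 0.0013 for Grin1, -0.11 and 0.035 for Gria1, and -0.041 and 0.38 for Mbp. With run as covariate, Eef2 stood at -0.00048. The cause was not tested. No paired analysis was possible because the labels give each library its own sample number and no replicate number shared between groups. With 3 libraries a group, differences of the size of the standard errors given could not be seen.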
